A study of Mus musculus with 17 samples.

Results

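The genes described here were the transcription factor and surface receptors by which regulatory T cells are recognised, together with the immune checkpoint receptors and ligands: Foxp3, Il2ra, Icos, Ctla4, Pdcd1, Lag3, Tigit, Havcr2, Cd274 and Pdcd1lg2. They were taken by name, as the rows of the count table with these 10 symbols. The names were chosen with earlier results of these data known, so shares of all tested genes beside their counts are not a test of the set. Each symbol had 1 row, so the set held 10 of the 45777 genes in the table, and all 10 passed the filter on low counts that left 22052 genes for testing. The counts came from bulk RNA of lungs of male wild-type C57BL/6 mice, an inbred strain, that arrived at an age of 6 weeks and were acclimatised for 1 week. The left lung was given 1 focal image-guided fraction of 65 or 75 Gy, control mice were given no radiation, and tissue was collected at 2 weeks, named the inflammation stage by the study, or at 6 weeks, its fibrosis stage. There were 3 libraries each of con_2w, 65Gy_2w, 75Gy_2w, con_6w and 75Gy_6w, and 2 of 65Gy_6w, a further library of that group being not analysed here. RNA was taken from the lesions of irradiated tissue, so what was measured is a mixture of lung and infiltrating cells, and the labels do not say whether each library came from a different mouse. The p-values therefore measure only the spread between these libraries. The main fit estimated that spread over all 6 groups together, so each comparison also draws on libraries outside it.

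Regulatory T cells are CD4+ T cells that restrain other immune cells, and FOXP3 is the transcription factor that defines them. They carry the high-affinity interleukin-2 receptor chain CD25 (Il2ra) and the co-stimulatory receptor ICOS, and they deplete B7 ligands through CTLA-4. PD-1, LAG-3, TIGIT and TIM-3 are inhibitory receptors that activated and exhausted T cells display, and PD-L1 and PD-L2, made by myeloid, epithelial and endothelial cells, are the ligands of PD-1. None of these receptors belongs to a single cell type: activated effector T cells also carry CD25, CTLA-4 and ICOS, and macrophages and dendritic cells carry TIM-3.

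In the GRCm38.p6 annotation, the genes sat at 8 separate places. Ctla4 (gene ID 12477, chr1:60909025-60915832) and Icos (54167, chr1:60960773-61000322) were neighbours 44940 bases apart on chromosome 1, and Cd274 (60533, chr19:29362107-29388095) and Pdcd1lg2 (58205, chr19:29410919-29472927) were neighbours 22823 bases apart on chromosome 19. The others were Pdcd1 (18566, chr1:94038305-94052553), Il2ra (16184, chr2:11642792-11693194), Lag3 (16768, chr6:124904359-124912434), Havcr2 (171285, chr11:46454931-46481255), Tigit (100043314, chr16:43626137-43665125) and Foxp3 (20371, chrX:7579676-7595243). Several overlap other genes, whose levels are given in CPM, a gene's count divided by the size of its library and set to a common scale: Foxp3 overlaps Flicr, at 0.105 to 0.361 CPM, and Ccdc22, at 13.6 to 20.8 CPM, while Tigit overlaps Zbtb20, at 7.16 to 43.9 CPM, and Cd274 overlaps Plgrkt, at 25.9 to 45.2 CPM. The library kit keeps strand, but the sources used here do not say whether the counting did, so reads of these overlapping genes could be split uncertainly.

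NFAT and STAT5 are known regulators of T cell genes, and whether their motifs bear on the changes was not tested. The 250 bases before the start of 4 of the genes are shown as examples. They are RefSeq sequence of GRCm38.p6, read 5′ to 3′ on the strand of the gene, and capitals mark matches to the motifs searched. For Foxp3 the window lies before the second of its annotated starts; the window before the first, not printed, held no STAT motif and 1 NFAT core at 205 bases.
Foxp3 (chrX:7580233-7580482, plus strand): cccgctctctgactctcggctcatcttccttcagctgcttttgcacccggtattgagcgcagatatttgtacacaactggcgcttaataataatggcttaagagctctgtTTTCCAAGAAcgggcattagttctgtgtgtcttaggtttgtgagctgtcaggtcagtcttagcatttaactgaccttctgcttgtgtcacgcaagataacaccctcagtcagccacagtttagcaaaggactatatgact
Ctla4 (chr1:60908775-60909024, plus strand): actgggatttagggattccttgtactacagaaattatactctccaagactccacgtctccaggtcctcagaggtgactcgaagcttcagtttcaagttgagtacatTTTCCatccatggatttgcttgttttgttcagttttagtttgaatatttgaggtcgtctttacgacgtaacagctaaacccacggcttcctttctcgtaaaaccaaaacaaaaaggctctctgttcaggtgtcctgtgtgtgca
Pdcd1 (chr1:94052554-94052803, minus strand): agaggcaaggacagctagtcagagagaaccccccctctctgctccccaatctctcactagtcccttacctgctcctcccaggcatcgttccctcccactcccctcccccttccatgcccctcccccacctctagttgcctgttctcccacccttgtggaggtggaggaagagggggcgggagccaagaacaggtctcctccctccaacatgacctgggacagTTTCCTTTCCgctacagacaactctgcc
Il2ra (chr2:11642542-11642791, plus strand): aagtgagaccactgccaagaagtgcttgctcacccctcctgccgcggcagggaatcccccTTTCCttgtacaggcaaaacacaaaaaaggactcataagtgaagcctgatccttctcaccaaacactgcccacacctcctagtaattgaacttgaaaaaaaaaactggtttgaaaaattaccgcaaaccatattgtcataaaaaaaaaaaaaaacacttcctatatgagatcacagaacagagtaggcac

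The capitals before Foxp3 hold a match to the STAT motif TTCNNNGAA, 139 bases upstream of the start, which overlaps the NFAT core GGAAA, read on the other strand, at 140 bases. Ctla4 had a single NFAT core at 144 bases, Il2ra a single one at 190 bases, and Pdcd1 a pair at 28 and 23 bases. Over 32851 promoter windows of this length and both strands, 7.02% held the STAT motif and 55.6% the NFAT core, so the latter is common in any promoter. The interferon regulatory factor motif, 2 GAAA runs with any 2 bases between them, was held by 2.98% of windows and by no window of the 8 matched genes, which says only that these letters are not there. Of the windows not printed, those of Tigit, Cd274 and Pdcd1lg2 held the NFAT core. The window of Havcr2 held neither the NFAT core nor the STAT motif. It held 1 match, at 200 bases, to TGANTCA, the motif of the transcription factor AP-1, which 6.75% of windows held. Icos and Lag3 had no entry.

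Depth was high for genes of this level. The libraries held 46764569 to 66797879 counts in genes, and the members' counts ran from 23 for Pdcd1 in 1 control library to 9222 for Cd274 in 1 irradiated library. Library sizes were scaled for CPM by the trimmed mean of M-values (TMM). The total of 11 lung tissue markers was 36436 to 47923 CPM in controls and 21815 to 41698 CPM after irradiation, with its lowest value in 75Gy_2w library 3134. That library stood apart for the genes described here: it was the highest of 17 in 8 of 10, and lay 1.88-fold (Havcr2) to 4.89-fold (Pdcd1lg2) above the mean of the other 75Gy_2w libraries. It also had the highest totals of T cell markers (324.6 CPM), dendritic cell markers (700.9 CPM) and thymocyte markers (39.0 CPM) and the lowest of B cell markers (152.5 CPM). The part of tissue composition in its values was not tested, and the changes of the 10 genes with 75 Gy at 2 weeks are given with and without it.

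All 10 genes had a higher mean after irradiation at both doses and both times, and with 75 Gy most of them passed the threshold in the fit of all 17 libraries. A gene was called where edgeR's quasi-likelihood test gave a Benjamini-Hochberg adjusted p of 0.05 or less and a change of at least 1 on the log2 scale. At 2 weeks 9 of 10 were called higher with 75 Gy, where 5.67% of all tested genes were, and 6 with 65 Gy, where 3.47% were. At 6 weeks 7 were called higher with 75 Gy (7.28% of all tested genes) and 4 with 65 Gy (4.34%). None was called lower in any of the 4 comparisons. The median change of the 10 genes was 2.14 and 1.62 on the log2 scale with 75 Gy at 2 and 6 weeks and 1.44 and 1.15 with 65 Gy, beside medians of all tested genes between -0.01 and 0.04. Fewer cells of a type and less RNA per cell cannot be told apart in bulk tissue, nor can more cells and more RNA. The 2 doses share their control libraries at each time, so their values are not independent of each other.

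Without library 3134, 8 genes were called with 75 Gy at 2 weeks, and Lag3 was the one lost. Leaving out 1 library also moved the smaller counts. Without 65Gy_2w library 3129, 2 genes were called with 65 Gy at 2 weeks. Without con_6w library 3136, 2 genes were called with 65 Gy at 6 weeks, and likewise without 3137. Without either library of 65Gy_6w a single library is left in that group, so no count is given for those fits. Without 75Gy_2w library 3132, both of these counts rose to 8, and the same was seen without library 3134. DESeq2 called 9 and 7 genes with 75 Gy at 2 and 6 weeks and 8 and 6 with 65 Gy. With only the compared groups in the edgeR fit, 5 and 8 were called with 75 Gy and 8 and 9 with 65 Gy. The larger count was then with 65 Gy at both times. Of all genes tested, 834 and 2322 were called with 75 Gy in those fits, in either direction, and 873 and 1316 with 65 Gy.

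**Figure D1:**
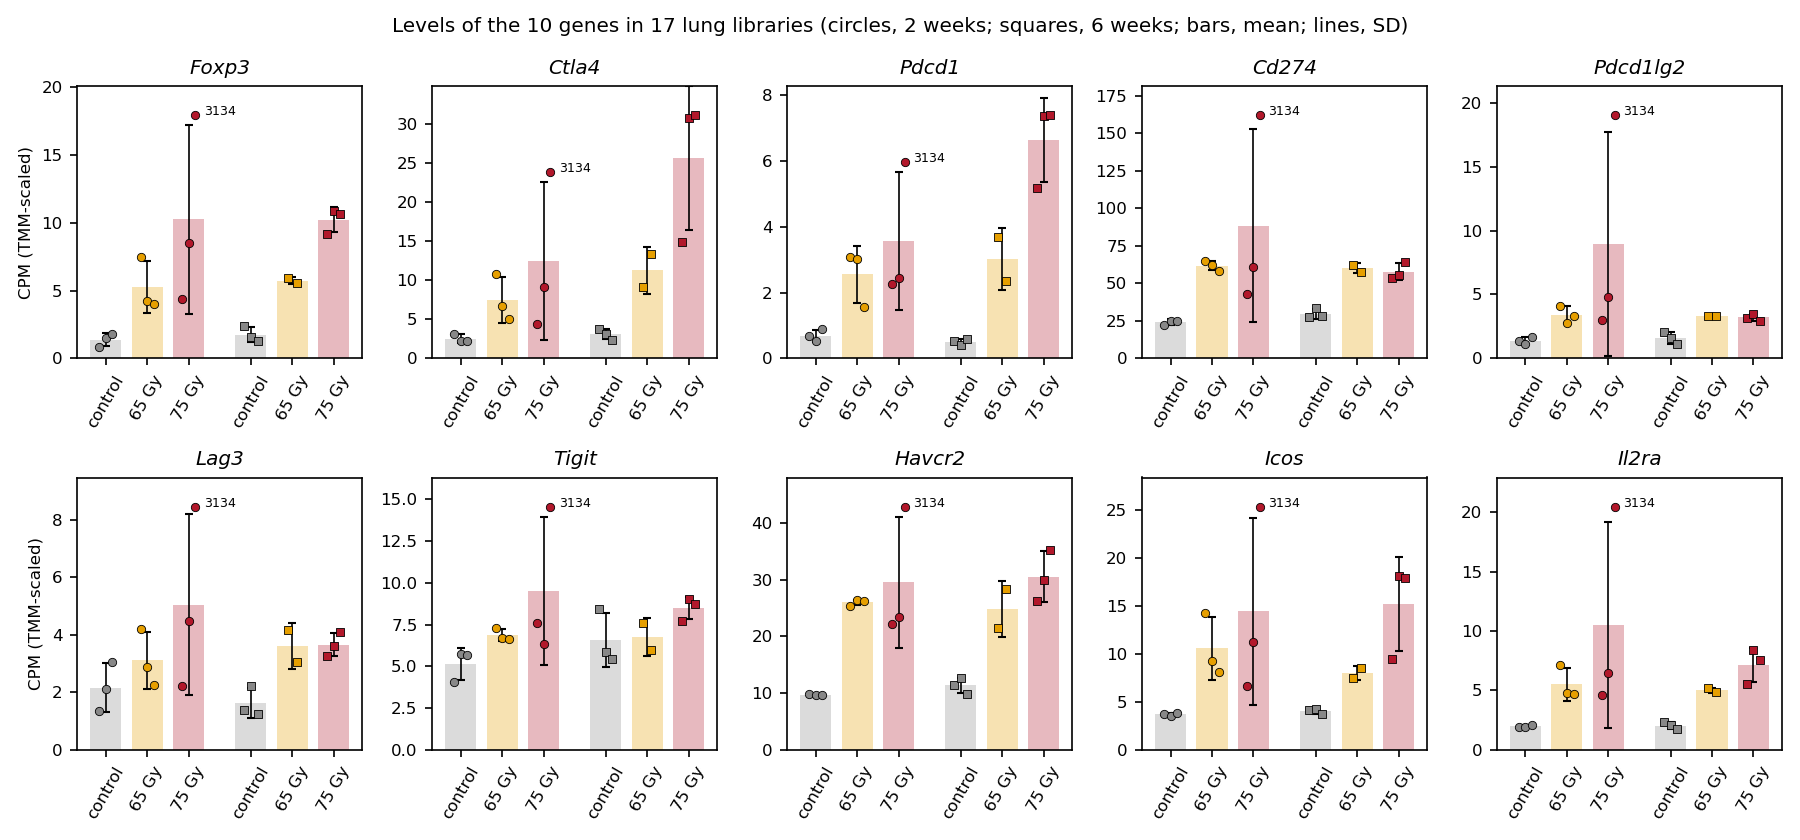
Level of each of the 10 genes in every library, in TMM-scaled CPM on a linear axis, for the 6 groups of dose and time. Points are libraries, bars are group means and error bars are the SD (n = 3, and n = 2 for 65 Gy at 6 weeks); the annotated point of 75 Gy at 2 weeks is library 3134, which is the highest of 17 for 8 genes.

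Groups that did not overlap were as frequent at 65 Gy as at 75 Gy. Every irradiated library lay above every control of its time in 9 of 10 genes in each of the 4 comparisons, the exception being Lag3 at 2 weeks and Tigit at 6 weeks. This holds for 15.5% and 29.4% of all tested genes with 75 Gy at 2 and 6 weeks and for 15.9% and 28.2% with 65 Gy.

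Foxp3, the defining factor of regulatory T cells, was 0.852, 1.499 and 1.79 CPM in con_2w, 7.47, 4.23 and 4.04 CPM in 65Gy_2w and 4.36, 8.48 and 17.96 CPM in 75Gy_2w. At 6 weeks it was 2.35, 1.60 and 1.27 CPM in con_6w, 5.90 and 5.55 CPM in 65Gy_6w and 9.19, 10.9 and 10.6 CPM in 75Gy_6w. All irradiated libraries lay above all 6 controls. The change on the log2 scale with 75 Gy was 2.89 (SE 0.44, edgeR adjusted p = 0.000439) at 2 weeks and 2.55 (SE 0.43, adjusted p = 0.000467) at 6 weeks. With 65 Gy it was 1.92 (SE 0.43, adjusted p = 0.0109) and 1.71 (SE 0.45, adjusted p = 0.0215). Foxp3 was one of 3 genes called in all 4 comparisons, with Pdcd1 and Havcr2. Without library 3134 its change with 75 Gy at 2 weeks was 2.22. The call with 65 Gy was lost at 2 weeks without library 3129, and at 6 weeks without any one of libraries 3136, 3137, 3138 or 3140.

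Il2ra, which encodes the CD25 chain that gives the interleukin-2 receptor its high affinity, was 1.91, 1.95 and 2.12 CPM in con_2w, 7.10, 4.77 and 4.67 CPM in 65Gy_2w and 4.59, 6.46 and 20.5 CPM in 75Gy_2w. By 6 weeks the level was 2.30, 2.09 and 1.71 CPM in con_6w, 5.18 and 4.88 CPM in 65Gy_6w and 5.53, 8.37 and 7.56 CPM in 75Gy_6w. Every irradiated library lay above all 6 controls, of which the highest was 2.30 CPM. Il2ra was called with 75 Gy at 2 weeks (log2 change 2.40, SE 0.42, edgeR adjusted p = 0.00108) and 6 weeks (1.81, SE 0.41, adjusted p = 0.0036), and with 65 Gy at 2 weeks (1.47, SE 0.41, adjusted p = 0.0336). At 6 weeks with 65 Gy it missed the threshold (1.31, SE 0.44, adjusted p = 0.0616). Its change with 75 Gy at 2 weeks was 1.47 without library 3134, and the call with 65 Gy at 2 weeks was lost without any one of the 6 libraries compared.

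Icos, a co-stimulatory receptor of activated and regulatory T cells, was 3.78, 3.51 and 3.81 CPM in con_2w, 14.3, 9.31 and 8.16 CPM in 65Gy_2w and 6.67, 11.3 and 25.4 CPM in 75Gy_2w. The 6-week level was 4.12, 4.28 and 3.75 CPM in con_6w, 7.50 and 8.57 CPM in 65Gy_6w and 9.51, 18.2 and 17.9 CPM in 75Gy_6w. No irradiated library came down to the controls. On the log2 scale the rise was 1.96 (SE 0.38, edgeR adjusted p = 0.00219) with 75 Gy at 2 weeks, 1.91 (SE 0.38, adjusted p = 0.00151) with 75 Gy at 6 weeks and 1.51 (SE 0.38, adjusted p = 0.0194) with 65 Gy at 2 weeks, a call lost without library 3127, 3128 or 3129. With 65 Gy at 6 weeks the change of 0.99 (SE 0.41, adjusted p = 0.12) was not called. Without library 3134 the change with 75 Gy at 2 weeks was 1.28.

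Ctla4, whose product competes with CD28 for the ligands CD80 and CD86, was 3.17, 2.16 and 2.15 CPM in con_2w, 10.8, 6.66 and 4.97 CPM in 65Gy_2w and 4.43, 9.13 and 23.9 CPM in 75Gy_2w. At 6 weeks the gene was 3.73, 3.14 and 2.39 CPM in con_6w, 9.14 and 13.4 CPM in 65Gy_6w and 14.9, 30.8 and 31.2 CPM in 75Gy_6w. Its highest 2 libraries were of 75 Gy at 6 weeks, and library 3134 came next. The change was called with 75 Gy at 2 weeks (log2 change 2.32, SE 0.50, edgeR adjusted p = 0.00416) and 6 weeks (3.05, SE 0.51, adjusted p = 0.000417) and with 65 Gy at 6 weeks (1.87, SE 0.53, adjusted p = 0.0283), the last being lost without any one of its 5 libraries. With 65 Gy at 2 weeks it narrowly missed (1.58, SE 0.50, adjusted p = 0.0532). Without library 3134 the change with 75 Gy at 2 weeks was 1.45.

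Pdcd1, which encodes the inhibitory receptor PD-1, was the lowest of the 10 per kilobase in controls and had the largest change of them at 6 weeks. It was 0.670, 0.514 and 0.877 CPM in con_2w, 3.08, 3.01 and 1.55 CPM in 65Gy_2w and 2.26, 2.44 and 5.98 CPM in 75Gy_2w. At 6 weeks the values were 0.535, 0.410 and 0.576 CPM in con_6w, 3.68 and 2.34 CPM in 65Gy_6w and 5.17, 7.36 and 7.40 CPM in 75Gy_6w. The lowest irradiated library, at 1.55 CPM, was still above the highest control. With 75 Gy Pdcd1 rose by 2.36 (SE 0.39, edgeR adjusted p = 0.000775) on the log2 scale at 2 weeks and by 3.70 (SE 0.41, adjusted p = 2.12e-05) at 6 weeks, which is 13.0-fold. With 65 Gy the rise was 1.89 (SE 0.39, adjusted p = 0.00677) at 2 weeks and 2.56 (SE 0.42, adjusted p = 0.00143) at 6 weeks. These 4 calls held in all 25 alternatives tried, including each library left out, and the change with 75 Gy at 2 weeks was 1.77 without library 3134.

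Havcr2, which encodes TIM-3, a receptor of T cells and of macrophages and dendritic cells, had the smallest standard errors of the 10. It was 9.88, 9.64 and 9.71 CPM in con_2w, 25.4, 26.4 and 26.2 CPM in 65Gy_2w and 22.3, 23.4 and 42.9 CPM in 75Gy_2w. In the 6-week groups it was 11.5, 12.7 and 9.90 CPM in con_6w, 21.4 and 28.4 CPM in 65Gy_6w and 26.3, 30.0 and 35.3 CPM in 75Gy_6w. Its changes were smaller than those of Foxp3 and Pdcd1 but better determined: on the log2 scale 1.60 (SE 0.21, edgeR adjusted p = 0.000132) with 75 Gy at 2 weeks, 1.43 (SE 0.21, adjusted p = 0.000162) with 75 Gy at 6 weeks, and 1.42 (SE 0.21, adjusted p = 0.000541) and 1.13 (SE 0.22, adjusted p = 0.00444) with 65 Gy. The change with 75 Gy at 2 weeks was 1.23 without library 3134, and the call with 65 Gy at 6 weeks was lost without library 3140.

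Lag3 and Tigit, inhibitory receptors for MHC class II and for CD155, had the smallest changes of the 10 at 2 weeks. Lag3 was 1.34, 2.098 and 3.05 CPM in con_2w, 4.20, 2.89 and 2.24 CPM in 65Gy_2w and 2.21, 4.49 and 8.46 CPM in 75Gy_2w, so that irradiated and control libraries overlapped at 2 weeks. At 6 weeks it was 1.39, 2.21 and 1.24 CPM in con_6w, 4.17 and 3.04 CPM in 65Gy_6w and 3.26, 3.63 and 4.09 CPM in 75Gy_6w, with no overlap. Lag3 was called with 75 Gy at 2 weeks (log2 change 1.22, SE 0.41, edgeR adjusted p = 0.0448) and 6 weeks (1.18, SE 0.42, adjusted p = 0.0378) but not with 65 Gy (adjusted p = 0.474 and 0.1004). The call at 2 weeks was lost in 11 of 17 fits that left out a library, with a change of 0.63 (adjusted p = 0.287) without library 3134, and the call at 6 weeks was lost without library 3135, 3137, 3142 or 3143.

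Tigit was 4.06, 5.72 and 5.70 CPM in con_2w, 7.30, 6.72 and 6.66 CPM in 65Gy_2w and 7.62, 6.31 and 14.6 CPM in 75Gy_2w. By 6 weeks the level was 8.43, 5.85 and 5.41 CPM in con_6w, 7.57 and 5.97 CPM in 65Gy_6w and 7.73, 9.01 and 8.73 CPM in 75Gy_6w, and the highest control lay inside the irradiated range. Tigit was not called in any of the 4 comparisons: with 75 Gy the change was 0.88 (SE 0.26, edgeR adjusted p = 0.0243) on the log2 scale at 2 weeks, under the fold limit, and 0.37 (adjusted p = 0.279) at 6 weeks. With 65 Gy it was 0.42 (adjusted p = 0.347) and 0.04 (adjusted p = 0.94), the latter turning negative without library 3136, 3137 or 3138. Without library 3134 the first of these was 0.43.

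Cd274 encodes PD-L1, the broadly expressed ligand of PD-1, and was the most abundant of the 10 per kilobase. It was 21.9, 25.1 and 25.1 CPM in con_2w, 64.6, 62.1 and 58.5 CPM in 65Gy_2w and 42.6, 60.9 and 162.2 CPM in 75Gy_2w. The 6-week level was 27.4, 33.2 and 28.3 CPM in con_6w, 62.5 and 57.8 CPM in 65Gy_6w and 53.3, 55.5 and 64.0 CPM in 75Gy_6w. Apart from library 3134, the irradiated libraries of both doses and times lay within 42.6 to 64.6 CPM. Cd274 was called at 2 weeks with 75 Gy (log2 change 1.88, SE 0.33, edgeR adjusted p = 0.00111) and 65 Gy (1.36, SE 0.33, adjusted p = 0.0154). At 6 weeks its changes of 0.96 (SE 0.32, adjusted p = 0.0309) with 75 Gy and 1.02 (SE 0.35, adjusted p = 0.065) with 65 Gy each missed one part of the rule. Without library 3134 the change with 75 Gy at 2 weeks was 1.11 and was still called, and the call with 65 Gy was lost without library 3129.

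Pdcd1lg2, which encodes PD-L2, a PD-1 ligand of dendritic cells and macrophages, was 1.32, 1.11 and 1.66 CPM in con_2w, 4.10, 2.78 and 3.35 CPM in 65Gy_2w and 2.98, 4.82 and 19.1 CPM in 75Gy_2w. At 6 weeks the gene was 2.06, 1.60 and 1.08 CPM in con_6w, 3.31 and 3.31 CPM in 65Gy_6w and 3.15, 3.503 and 2.96 CPM in 75Gy_6w. The irradiated libraries other than 3134 lay between 2.78 and 4.82 CPM. It was called with 75 Gy at 2 weeks alone (log2 change 2.71, SE 0.51, edgeR adjusted p = 0.00183), a change of 1.51 without library 3134. The other 3 changes were 1.02 to 1.32 with adjusted p between 0.108 and 0.204, so this ligand was not shown to rise at 6 weeks, although no irradiated library overlapped a control.

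**Figure D2:**
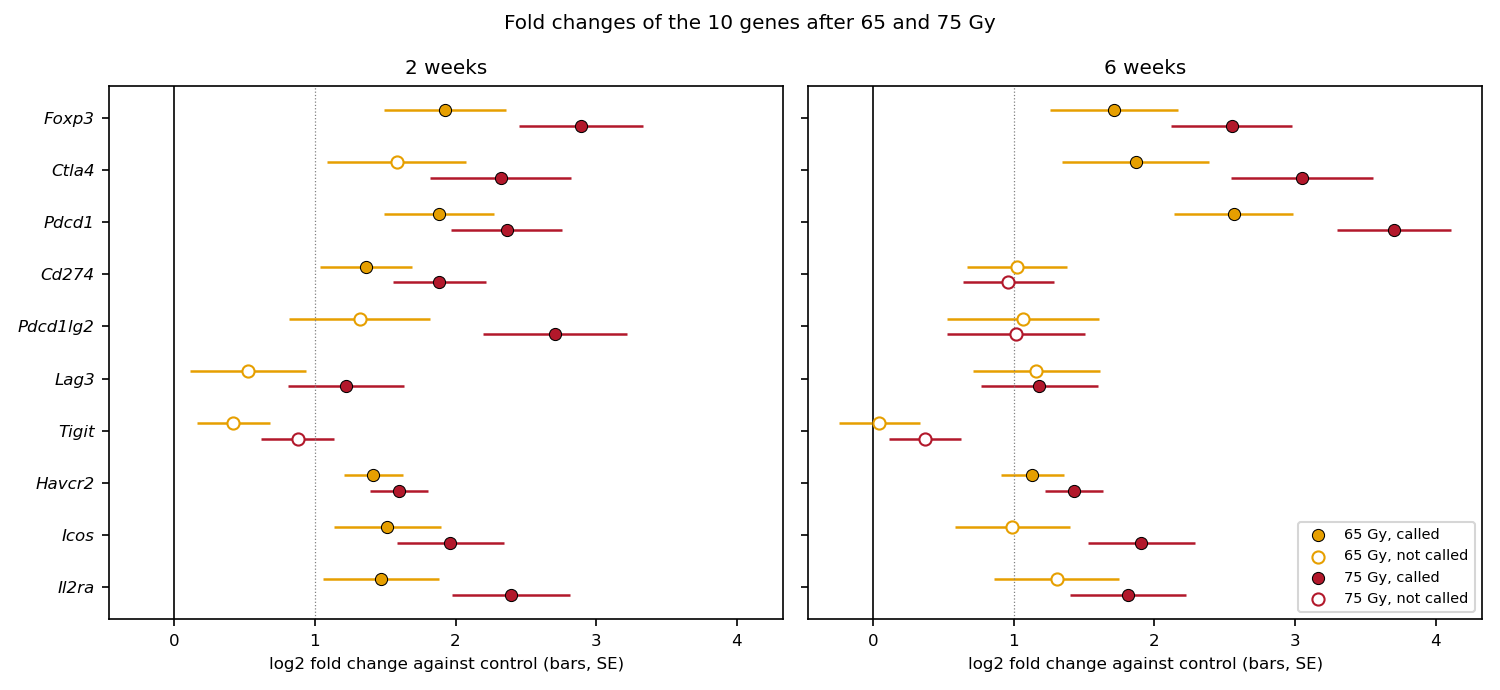
Change of each of the 10 genes against the control of the same time, as log2 fold change with its standard error, for 65 and 75 Gy at 2 and 6 weeks. Filled points were called by edgeR (adjusted p of 0.05 or less and a log2 change of at least 1); Pdcd1 with 75 Gy at 6 weeks is the largest at 3.70 and Tigit has no filled point.

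Compared per length, as mean CPM per kilobase of exon in GENCODE M21, the order of the 10 genes in controls was Cd274 (7.40), Tigit (6.38), Havcr2 (3.88), Ctla4 (1.44), Icos (1.13), Lag3 (0.944), Pdcd1lg2 (0.751), Il2ra (0.386), Foxp3 (0.381) and Pdcd1 (0.309). Over irradiated libraries the means per kilobase were 18.7 for Cd274, 10.3 for Havcr2, 8.72 for Tigit, 7.49 for Ctla4, 3.62 for Icos, 2.47 for Pdcd1lg2, 2.08 for Pdcd1, 1.97 for Foxp3, 1.94 for Lag3 and 1.39 for Il2ra. Pdcd1 and Foxp3, the lowest pair in controls, were thus above Il2ra and beside Lag3 after irradiation. Neighbours in these orders were not tested against each other.

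The second question of the design was whether the doses differed. None of the 10 genes was called between 75 and 65 Gy at 2 weeks or at 6 weeks, by edgeR or by DESeq2. Of all tested genes, edgeR called 0.0% at 2 weeks and 0.0% at 6 weeks, and DESeq2 called 7 and 14 genes. At an unadjusted p under 0.05 there were 3 genes at 2 weeks, beside 1570 of all tested genes, and 3 at 6 weeks, beside 1431. At 2 weeks the 3 were Pdcd1lg2 (log2 difference 1.39, 95% interval 0.37 to 2.41), Foxp3 (0.97, 0.11 to 1.82) and Il2ra (0.93, 0.09 to 1.77), all higher with 75 Gy at an edgeR adjusted p of 0.69, and without library 3134 all 10 differences lay between -0.25 and 0.29. At 6 weeks they were Ctla4 (1.19, 0.04 to 2.33), Pdcd1 (1.14, 0.27 to 2.01) and Icos (0.92, 0.03 to 1.81), at an adjusted p of 0.735. The 95% interval of the difference between the doses lay within 1 on the log2 scale at 2 weeks for Havcr2 (-0.25 to 0.61) alone, and at 6 weeks for Cd274 (-0.82 to 0.70), Lag3 (-0.94 to 0.98), Havcr2 (-0.19 to 0.78) and Tigit (-0.29 to 0.94).

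The effect of 75 Gy at 6 weeks was also set against its effect at 2 weeks. None of the 10 genes was called in this test of the difference by edgeR or DESeq2, where edgeR called 0.254% of all tested genes. Pdcd1 had the larger effect at 6 weeks, by 1.34 (95% interval 0.18 to 2.51, edgeR adjusted p = 0.254), and Pdcd1lg2 the smaller, by -1.69 (-3.18 to -0.21, adjusted p = 0.257), and these were the 2 with an unadjusted p under 0.05. Without library 3134 the difference for Pdcd1lg2 was -0.50, while those for Pdcd1 and Ctla4 were 1.94 (adjusted p = 0.07) and 1.61 (adjusted p = 0.182). For 65 Gy none was called (0.0136% of all tested genes) and none had an unadjusted p under 0.05. Between controls of 6 and 2 weeks none was called either (0.576% of all tested genes), with differences from -0.44 for Pdcd1 to 0.35 for Tigit and no unadjusted p under 0.05.

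How far the rise went with T cells as a whole was described with the 4 CD3 genes (Cd3d, Cd3e, Cd3g and Cd247), which encode the signalling chains of the T cell receptor. Their summed level was 28.1 to 39.7 CPM in controls and 32.1 to 69.7 CPM after irradiation, with library 3134 the highest. Within 65Gy_2w, library 3129 was the highest, with a geometric mean of 12.9 CPM over the 4 genes beside 8.66 and 7.83 CPM. With 75 Gy at 6 weeks Cd3g (log2 change 1.04, edgeR adjusted p = 0.00294) and Cd3d (1.02, adjusted p = 0.0101) were called, both lost without library 3136, 3137 or 3142, and no CD3 gene was called in the other 3 comparisons. Cd3e changed by 0.52 to 0.81 and Cd247 by 0.08 to 0.35 over the 4 comparisons, not called. Cd4 was called at 6 weeks with 75 Gy (1.17, adjusted p = 0.00262) and 65 Gy (1.04, adjusted p = 0.0211), the latter lost without library 3136, 3137, 3138 or 3140. Cd8a, named after its values were seen, was not called in any of them (0.64 and -0.47 with 75 Gy at 2 and 6 weeks, 0.34 and -0.05 with 65 Gy). Of all 15 T cell markers, 2 and 4 were called higher with 75 Gy at 2 and 6 weeks and 0 and 2 with 65 Gy, and without library 3134 none was at 2 weeks with 75 Gy, without 3142 1 was at 6 weeks with 75 Gy, and without 3138 none was at 6 weeks with 65 Gy.

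Each level, with 0.05 CPM added, was also divided by the geometric mean level of the 4 CD3 genes of the same library, and for several genes this ratio was higher after irradiation. Every irradiated library lay above every control in 8 and 7 of 10 genes with 75 Gy at 2 and 6 weeks and in 8 and 5 with 65 Gy, where 4.51%, 4.93%, 5.71% and 5.15% of all tested genes did so in that order. The ratio was not tested, since its denominator is itself an outcome. Foxp3 per CD3 was higher by 2.06 and 1.82 on the log2 scale with 75 Gy at 2 and 6 weeks and by 1.64 and 1.06 with 65 Gy. Pdcd1 per CD3 was higher by 1.55 and 2.83 with 75 Gy and by 1.53 and 1.77 with 65 Gy, and Ctla4 by 1.37 and 2.23, and by 1.26 and 1.18. Without library 3134 the differences with 75 Gy at 2 weeks were 1.78 for Foxp3, 1.35 for Pdcd1 and 0.97 for Ctla4, and the count remained 8. Lag3 per CD3 overlapped the controls throughout, with differences of 0.29 to 0.49. Tigit per CD3 differed at 6 weeks by -0.35 with 75 Gy and -0.61 with 65 Gy, and every irradiated library lay below every control. The share of all tested genes that did so was not computed. Tigit itself changed by 0.37 and 0.04 there, not called, while the median change of the 4 CD3 genes was 0.80 and 0.71. The lower ratio is thus not a fall in the level of Tigit. Cd274, Pdcd1lg2 and Havcr2 are also made by cells other than T cells, so for them a ratio to CD3 is not a level per T cell.

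**Figure D3:**
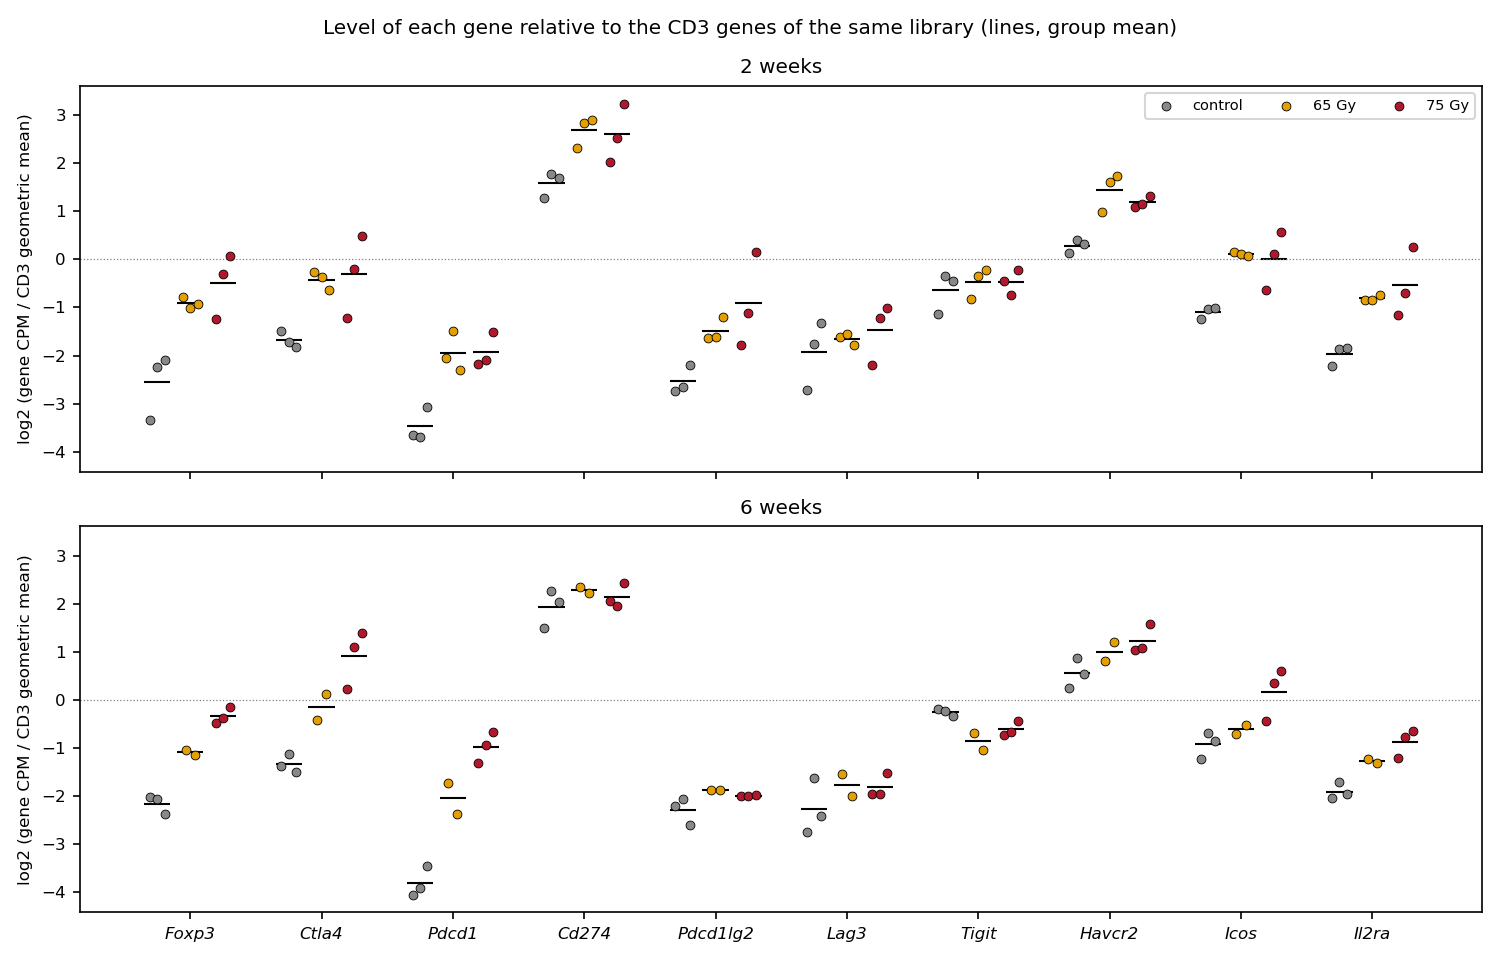
Level of each gene divided by the geometric mean level of the 4 CD3 genes of the same library, as log2 ratio, in controls, 65 Gy and 75 Gy at 2 weeks (one panel) and 6 weeks (the other). Points are libraries; Foxp3 and Pdcd1 lie above the controls in every irradiated library, whereas Tigit lies below the controls at 6 weeks.

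Markers of other cells moved as well. Of 11 dendritic cell markers 5 and 7 were called higher with 75 Gy at 2 and 6 weeks and 4 and 6 with 65 Gy, with totals of 187.6 to 268.0 CPM in controls and 350.4 to 700.9 CPM after irradiation. Of 10 macrophage markers 4 and 6 were called higher with 75 Gy and 4 and 7 with 65 Gy, with totals of 4719 to 11375 CPM in controls and 9062 to 15654 CPM after irradiation. Of 10 neutrophil markers 6 and 4 were called lower with 75 Gy and 6 and 2 with 65 Gy, with totals of 458.5 to 831.4 CPM and 160.8 to 384.4 CPM. With 1 library left out, the lowest counts were 5 and 2 with 75 Gy and 2 with 65 Gy at 2 weeks. Of all 22052 tested genes, 1707 and 2297 were called in either direction with 75 Gy, 1250 and 1606 of them higher. With 65 Gy 960 and 1164 were called, 766 and 956 of them higher. The NK cell total was 71.2 to 136.5 CPM in controls and 41.6 to 98.4 CPM after irradiation, and no gene of these lists was at 0 in every library. Xcr1 (log2 change 1.2002 to 1.94 over the 4 comparisons), a receptor of cross-presenting dendritic cells, and C1qa (2.34 to 3.11), a complement gene of tissue macrophages, were called in all 4. The part of these cells in the values of Cd274, Pdcd1lg2 and Havcr2 was not tested.

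Lymphoid tissue was looked for with thymocyte and B cell markers. The total of 8 thymocyte markers was 17.1 to 23.0 CPM in controls and 18.2 to 39.0 CPM after irradiation, no gene of the 6 tested was called in the 4 comparisons, and 1 of the 8 was under 0.1 CPM in every library. In library 3134, which had the highest total, Rag1 (0.211 CPM) and Arpp21 (0.070 CPM) were inside the range of controls (0 to 0.860 and 0.038 to 0.292 CPM). Ccr9 (6.17 CPM) and Themis (7.91 CPM) were higher there than in any other library. The part of lymphoid tissue was not tested. The B cell total was 230.1 to 671.1 CPM in controls and 152.5 to 307.0 CPM after irradiation, and 2 and 2 of 10 were called lower with 75 Gy at 2 and 6 weeks and 0 and 1 with 65 Gy. With 1 library left out, the lowest counts of B cell markers called lower with 75 Gy were 0 and 1.

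Other regulatory T cell genes followed in part. Of 19 tested, 6 and 7 were called higher with 75 Gy at 2 and 6 weeks and 2 and 4 with 65 Gy, and none lower, with 3 for 75 Gy at 2 weeks without library 3134, 0 for 65 Gy at 2 weeks without 3129 and 2 for 65 Gy at 6 weeks without 3138. Ccr4, a chemokine receptor of tissue-homing regulatory and helper T cells, was 0.771, 0.985 and 1.56 CPM in con_2w and 0.876, 0.695 and 0.454 CPM in con_6w, beside 2.26 to 8.21 CPM over all irradiated libraries. It was called in all 4 comparisons, with log2 changes of 2.22 and 2.33 with 75 Gy at 2 and 6 weeks and 1.51 and 2.12 with 65 Gy (edgeR adjusted p from 0.000849 to 0.0294). Itgae, the CD103 integrin of tissue-resident T cells and some dendritic cells, was called in 3 (1.29, 1.55 and, with 65 Gy at 6 weeks, 1.33), the exception being 65 Gy at 2 weeks (0.94). Ccr8, a receptor of tissue regulatory T cells that was named after its values were seen, was called with 75 Gy at both times (2.16 and 2.50) and with 65 Gy at 6 weeks (1.78), but not at 2 weeks (0.99). Il10, which encodes an anti-inflammatory cytokine of regulatory T cells and macrophages, had 0, 0 and 3 counts in con_2w, 24, 13 and 12 in 65Gy_2w and 6, 22 and 18 in 75Gy_2w, and it was called at both doses at 2 weeks. Nrp1, of the same list, went the other way. It was 521.7 to 616.2 CPM in controls and 329.0 to 450.3 CPM after irradiation, without overlap, and was not called.

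Areg, an epidermal growth factor receptor ligand linked to tissue repair by regulatory T cells, was called at 6 weeks and not at 2 weeks. It was 12.7, 6.45 and 5.45 CPM in con_2w and 6.34, 5.47 and 10.1 CPM in 75Gy_2w, which overlap, but 3.68, 2.34 and 3.002 CPM in con_6w and 12.5, 23.9 and 26.6 CPM in 75Gy_6w, which do not. Its log2 change with 75 Gy was -0.17 (edgeR adjusted p = 0.795) at 2 weeks and 2.80 (adjusted p = 0.000158) at 6 weeks, and with 65 Gy -0.37 (adjusted p = 0.603) and 1.72 (adjusted p = 0.0147).

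The ligands and partners of the checkpoint receptors rose in few cases, though in a larger share than the 3.47% to 7.28% of all tested genes. Of 15 tested, 3 and 4 were called higher with 75 Gy at 2 and 6 weeks and 2 and 3 with 65 Gy, with list medians of 0.02 to 0.13 on the log2 scale. Cd86 and Cd80, the ligands shared by CD28 and CTLA-4, were called in 3 comparisons each: Cd86 changed by 1.48 and 2.02 with 75 Gy and by 1.45 with 65 Gy at 6 weeks, but by 0.96 with 65 Gy at 2 weeks, and Cd80 by 1.65, 1.49 and, with 65 Gy at 2 weeks, 1.34, but by 0.76 at 6 weeks. Lgals3, which encodes galectin-3, was called in all 4 (1.24 to 1.86). Fgl1, a ligand of LAG-3, was called at 6 weeks, at 9, 0 and 9 counts in con_6w, 113 and 169 in 65Gy_6w and 130, 64 and 62 in 75Gy_6w. Lgals9, the galectin-9 ligand of TIM-3, changed by 0.17 to 0.44 and was not called.

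Of 11 other inhibitory receptors tested, 6 and 4 were called higher with 75 Gy at 2 and 6 weeks and 2 and 4 with 65 Gy, with 4 for 75 Gy at 2 weeks without library 3134 and 1 for 65 Gy at 2 or 6 weeks without library 3129 or 3138. Cd200r1, the receptor for CD200 on myeloid and T cells, was 5.85, 4.56 and 4.96 CPM in con_2w and 4.54, 3.19 and 3.89 CPM in con_6w, and 13.8 to 38.5 CPM over all irradiated libraries. Its log2 change was 2.40 and 2.98 with 75 Gy at 2 and 6 weeks and 1.59 and 2.55 with 65 Gy (edgeR adjusted p from 6.67e-07 to 0.000273). Lair1, a collagen receptor of leukocytes, was called in all 4 as well (1.22 to 2.02), and Pvrig, which binds CD112, in all but 65 Gy at 2 weeks (0.98 there, 1.19 to 1.45 elsewhere).

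Of 14 co-stimulatory genes tested, 6 and 7 were called higher with 75 Gy at 2 and 6 weeks and 2 and 7 with 65 Gy, with 4 for 75 Gy at 2 weeks without library 3134 and 1 and 2 for 65 Gy without library 3129 and 3138. Tnfrsf9, which encodes 4-1BB, a receptor of recently activated T cells, was 1.60, 1.35 and 0.973 CPM in con_2w and 1.22, 1.05 and 1.15 CPM in con_6w, beside 5.24 to 15.5 CPM over all irradiated libraries. Its log2 change was 2.95 and 3.02 with 75 Gy and 2.69 and 2.22 with 65 Gy (edgeR adjusted p from 7.55e-06 to 0.000327). Tnfrsf4, which encodes OX40, was called in all but 65 Gy at 2 weeks (0.93 there, 1.09 to 1.82 elsewhere). Its ligand gene Tnfsf4 had no count in any con_2w library, and with a floor of 3 counts per control library it was at least 5.53-fold higher with 75 Gy and at least 4.40-fold higher with 65 Gy at 2 weeks, bounds that fell to 1.79 without library 3134 and 2.88 without library 3129. Tnfsf18, which encodes the GITR ligand, had 5, 0 and 0 counts in con_6w against 65 and 43 in 65Gy_6w and 48, 99 and 85 in 75Gy_6w, and it was called at both doses at that time.

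Among signalling genes around the members, calls went in both directions. Of all tested genes, 5.67% and 7.28% were called higher with 75 Gy at 2 and 6 weeks and 3.47% and 4.34% with 65 Gy. Of 13 IL-2 receptor pathway genes 2 and 1 were called higher with 75 Gy at 2 and 6 weeks and 1 and 1 with 65 Gy, with Socs3, a feedback inhibitor of cytokine signalling, called in all 4 (1.22 to 1.73) and Socs1, of the same family, with 75 Gy at 2 weeks (1.87, and 1.07 without library 3134). Of 16 regulators of T cell activation and exhaustion 0 and 2 were called higher and 3 and 1 lower with 75 Gy, and 0 and 1 higher and none lower with 65 Gy. Egr2 rose at 6 weeks (1.92 with 75 Gy and 1.495 with 65 Gy), while Nr4a2 was lower with 75 Gy at 2 weeks (-1.34) and Tox2 with 75 Gy at 6 weeks (-1.34). Ifng, which encodes interferon-γ, a known inducer of PD-L1, was 0.171 to 0.572 CPM in controls and 0.246 to 1.62 CPM after irradiation and was not called (log2 change 1.23 with 75 Gy at 2 weeks, edgeR adjusted p = 0.0666).

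Several of the calls named from these lists rested on single libraries. With 75 Gy at 2 weeks Itgae was lost without library 3134, where the change of Ccr4 was 1.72, of Ccr8 1.48, of Cd200r1 2.06, of Lair1 1.34, of Pvrig 1.05, of Tnfrsf9 2.52, of Tnfrsf4 1.15, of Cd80 1.33, of Cd86 1.03 and of Lgals3 1.19, all still called. With 65 Gy at 2 weeks Ccr4 was lost without library 3126, 3127, 3129 or 3131, Lair1 without 3127, 3128, 3129, 3130 or 3131, Il10 without 3127 or 3129, and Xcr1 without 3126. With 65 Gy at 6 weeks Ccr4 and Pvrig were lost without library 3138, Areg without 3136 or 3140, Ccr8 without 3136, 3138 or 3140, Lair1 without 3137, 3138 or 3140, Egr2 without 3136, 3137 or 3140, and Tnfrsf4 in 12 of 17 fits.

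**Figure D4:**
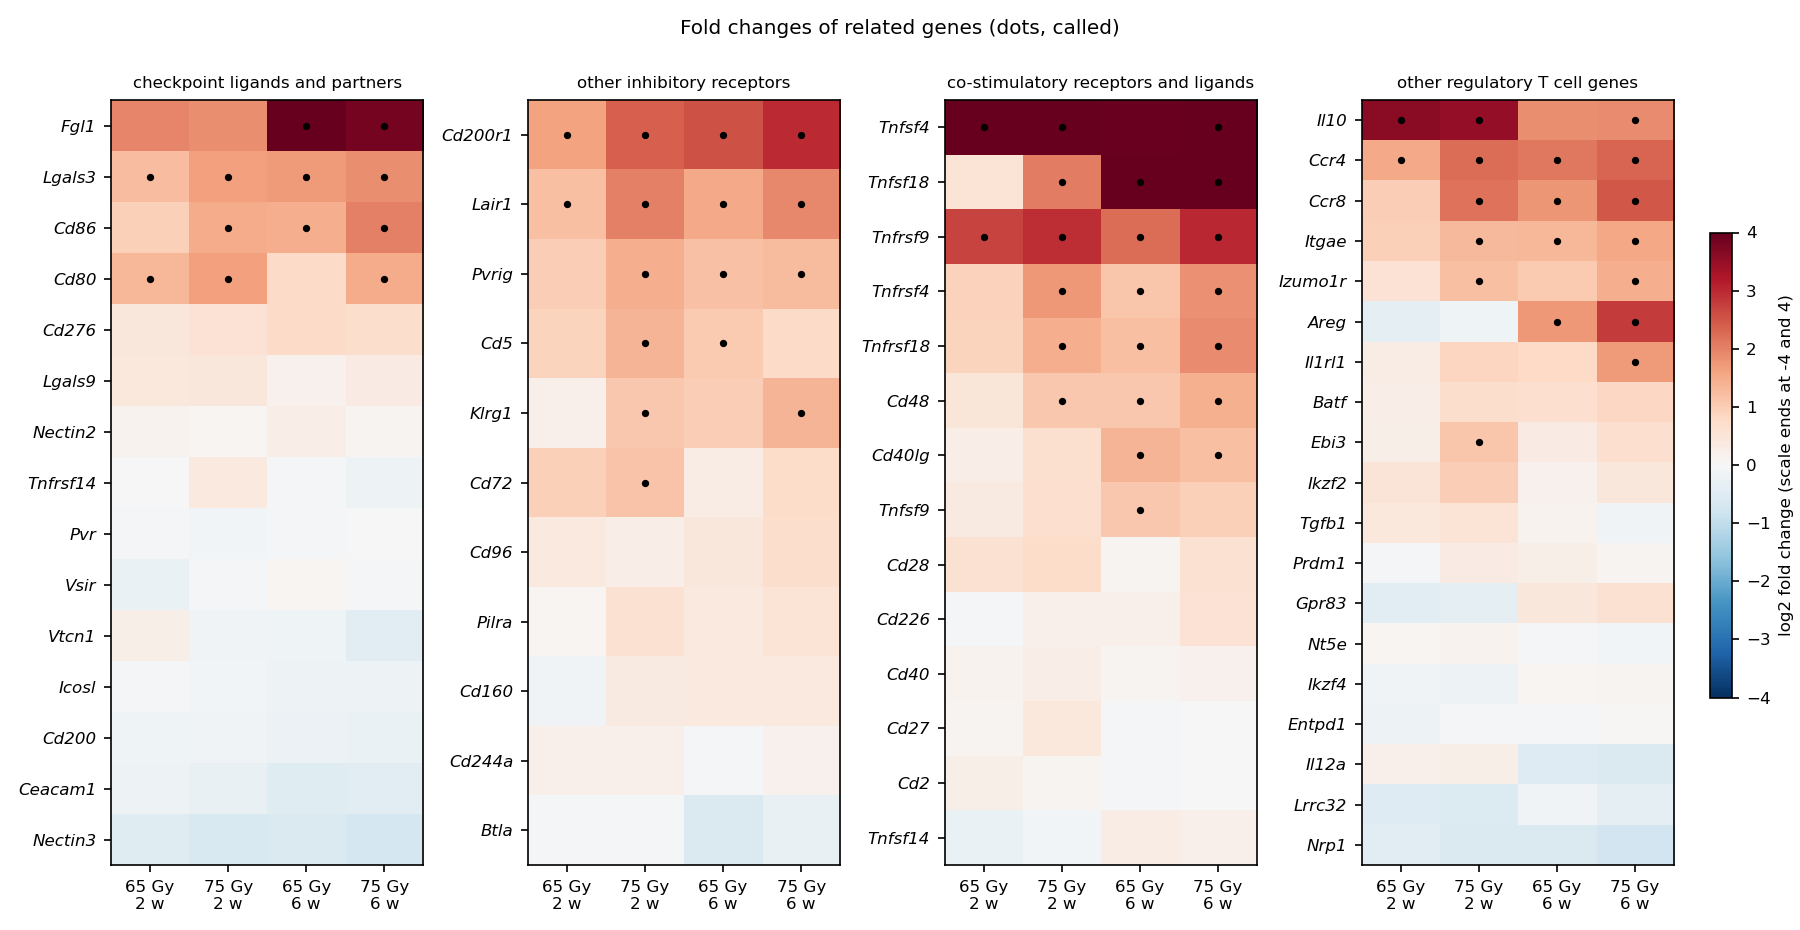
Log2 fold change against the control of the same time for the genes of 4 related lists (rows) in the 4 comparisons of dose and time (columns), on a colour scale from -4 to 4. Dots mark genes called by edgeR, all of them higher (red cells), and the rows of the checkpoint ligand list are mostly pale.

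The genes with the pattern nearest to each member were found by the root mean square difference of standardised log2 CPM over the 17 libraries, among 15796 genes. The smallest difference was that of Il2ra and Ifi30 (0.147), a lysosomal thiol reductase of antigen-presenting cells, which was also the gene nearest to Icos (0.226). MHC class I genes were near Cd274 (H2-D1 at 0.174 and H2-K1 at 0.186), the MHC class II gene H2-Eb1 (0.264) and the integrin gene Itgax (0.265) near Foxp3, and Tnfrsf4 (0.222) near Ctla4. For Havcr2 the nearest were Lilr4b (0.185) and Cd44 (0.203), for Pdcd1lg2 Irf5 (0.240), and for Pdcd1 Atg9b (0.235). Lag3 (nearest Tlr11, 0.367) and Tigit (nearest Pik3cg, 0.445) had nearest genes that were less like them. Between members the nearest pair was Icos and Il2ra (0.242) and the farthest Pdcd1 and Tigit (0.814). With group means subtracted, 1 of the 30 nearest genes stayed among the nearest.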

How the data were processed

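RNA-seq of mouse lung was analysed in 17 libraries of 6 groups. Per the labels and the study's methods, total RNA was made into TruSeq Stranded mRNA libraries, sequenced in pairs, trimmed with Trimmomatic and aligned with HISAT2 to GRCm38.p6. StringTie was used for assembly and for estimating expression levels. The authors deposited raw read counts per gene. How these read counts in particular were made, and whether strand was used, is not given in the sources used here.

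The counts were tested as deposited with edgeR 4.0.16 in R 4.3.3. Genes were kept by filterByExpr (minimum count 10, minimum total 15), libraries were scaled by TMM, 1 coefficient was fitted per group over all 17 libraries, and p-values of the quasi-likelihood F test were adjusted by Benjamini-Hochberg over 22052 genes. Alternatives were 2 other filters, RLE and upper-quartile scaling, DESeq2 1.42.0, a fit of the compared groups alone, other thresholds, and each library left out.

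The members and gene lists were chosen with earlier results of these data known. Named from the lists were the 3 genes of smallest p in each comparison with control, and others where the text says so. Sequences are from RefSeq (8 of 10 members matched). Some items are not reported here.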

Additional observations from a re-analysis of the deposited data

Results flagged for a closer look

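For 3 genes of the lists the effect of 75 Gy differed between 6 and 2 weeks in edgeR's test of the difference itself. The effect on Areg was higher at 6 weeks by 2.97 on the log2 scale (SE 0.55, adjusted p = 0.0329). That call ended in 8 of the 17 fits that left out a library, namely without 3126, 3130, 3133, 3135, 3136, 3137, 3142 or 3143.

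Cd209a, a lectin gene of monocyte-derived dendritic cells, had an effect higher at 6 weeks by 1.86 (SE 0.29, adjusted p = 0.0125). It was 8.87, 7.34 and 7.40 CPM in con_2w and 12.4, 11.1 and 8.93 CPM in 75Gy_2w, and 4.75, 5.99 and 5.45 CPM in con_6w and 19.7, 33.4 and 27.4 CPM in 75Gy_6w. The call held in all 25 alternatives.

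For Marco, a scavenger receptor gene of macrophages, the effect was lower at 6 weeks, by -2.35 (SE 0.40, adjusted p = 0.02). It was 22.9, 9.89 and 20.3 CPM in con_2w and 131.5, 97.1 and 97.97 CPM in 75Gy_2w, and 9.81, 7.17 and 8.26 CPM in con_6w and 12.9, 9.59 and 7.91 CPM in 75Gy_6w. The call was lost without library 3135, 3142 or 3143. None of the 10 regulatory T cell and checkpoint genes passed this test.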

How the results depend on the processing

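No paired analysis was possible because no replicate number is shared between groups. The number of the 10 genes called with 75 Gy at 2 weeks was 9, and 5 with the compared groups alone, where Ctla4, Cd274, Pdcd1lg2 and Lag3 were lost. With 65 Gy at 6 weeks it was 4, and 9 with the compared groups alone and 7 by unadjusted p. The counts of 7 with 75 Gy at 6 weeks and 6 with 65 Gy at 2 weeks both became 8 with the compared groups alone. By unadjusted p, 1 gene was called between the doses at 2 weeks and 2 at 6 weeks, beside 1.30% and 1.17% of all tested genes, and 2 in the test of the 75 Gy effect at 6 against 2 weeks, beside 4.43%. The cause of these shifts was not tested, beyond the looser threshold of unadjusted p. Leaving out each library gave 8 to 10 genes with 75 Gy at 2 weeks, 6 to 8 at 6 weeks, 2 to 8 with 65 Gy at 2 weeks and 1 to 8 at 6 weeks, and 0 to 0 in the other 5 comparisons. The change of Tigit with 65 Gy at 6 weeks, 0.04, ranged from -0.13 to 0.27 over libraries left out, with -0.03 without library 3136, -0.08 without 3137 and -0.13 without 3138. Genes above all controls per CD3 numbered 8 to 9, 7 to 8, 8 to 8 and 5 to 9 (75 Gy at 2 and 6 weeks, 65 Gy at 2 and 6 weeks) over libraries left out. Of the 30 nearest genes, 18 to 28 stayed with 1 library left out, 9 with ranks and 1 with group means subtracted. Of 4557 values of single genes under the alternatives, 4320 kept their direction and side of the threshold, 196 lost the call, 38 gained it and 3 turned.

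Depth limits little here: the lowest member count was 23. The limits are the 2 or 3 libraries of a group, the spread between libraries of a group such as 75Gy_2w, and bulk tissue, in which cell number and RNA per cell are not separable.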
